A study of Mus musculus with 7 samples.

Results

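The genes described here are the Wnt ligands, receptors and modulators measured in cancer-associated fibroblasts (CAFs) of mouse pancreatic tumors. They were chosen by name alone: every listed symbol that starts with Wnt, Fzd, Sfrp, Dkk, Rspo or Axin followed by a digit, together with the TCF/LEF factors, Lgr4 to Lgr6, Lrp5, Lrp6, Ctnnb1, Wif1, Frzb, Apcdd1, Nkd1, Nkd2, Znrf3, Rnf43 and Notum where present. The rule found 45 of the 12771 genes in the count table, 44 of them protein-coding. The other member, Fzd10os, is a transcript from the strand opposite Fzd10 that matched through its symbol. Of 61 protein-coding genes that the rule covers in RefSeq, 17 are outside the table and were not analysed here: Dkk1, Dkk4, Fzd10, Lef1, Rnf43, Rspo2, Rspo4, Sfrp5, Wnt1, Wnt10b, Wnt16, Wnt3, Wnt3a, Wnt7a, Wnt8a, Wnt8b and Wnt9b.

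To ask how loss of Brca2 in cancer cells alters the fibroblasts around them, KPC cells, a mouse pancreatic cancer line, were injected into the pancreas of C57BL/6 mice (8-week-old males). Before injection the cancer cells received, by lentivirus and puromycin selection, a pLKO.1 short hairpin RNA (shRNA) against Brca2 or a non-targeting shRNA, and tumors were collected 2 to 3 weeks later. Sorting kept cells that carried podoplanin (PDPN) and lacked CD45, CD31 and EpCAM, and a MARS-seq variant read the 3' ends of their poly(A) transcripts. There are 3 libraries from shControl tumors (replicates 1, 2 and 4) and 4 from shBrca2 tumors (replicates 1 to 4), each from another mouse. The hairpin was in the cancer cells, so the sorted fibroblasts of both groups came from mice without it.

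Wnt proteins are secreted ligands that bind Frizzled receptors and the co-receptors LRP5 and LRP6 at the cell surface. In the canonical branch this binding stops the destruction of β-catenin, which then enters the nucleus and activates target genes with TCF/LEF factors, some of which encode inhibitors that feed back on the pathway. Fibroblasts are a known source of Wnt ligands, R-spondins and secreted antagonists, which set how much ligand neighboring cells receive.

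Total counts ran from 1898679 to 5990579 per library and overlapped between the groups. Brca2 had 5 to 21 counts per library, and its log2 fold change was -0.03 ± 0.47 (standard error, SE, with a DESeq2 adjusted p of 0.97), which does not test the knockdown because these cells did not carry the hairpin. All 10 fibroblast markers examined were present, and their summed normalized counts ran from 139550 to 156650 in shControl and from 112150 to 133450 in shBrca2. Dcn (log2 fold change -0.77) and Lum (-1.18) were called lower and 8 were not called. Over the 10 markers 2 log2 fold changes were positive and 8 negative. Those of Pdgfra (0.01), Fap (0.05), Col1a1 (-0.04), Pdgfrb (-0.06) and Col1a2 (-0.09) were near 0. Col3a1 (-0.44, DESeq2 adjusted p = 0.14), Vim (-0.18) and Pdpn (-0.25, without overlap between the groups) were lower but not called. Markers of other cells also moved with the groups. The summed level of 6 listed epithelial genes was 411 to 1164 in shControl and 1467 to 2059 in shBrca2. Krt7, Krt8, Krt18 and Krt19 were called higher and 2 genes were not called. These were Muc1, with a log2 fold change of 0.01, and Cdh1, with 1 to 17 counts per library. Epcam, Cldn4 and Esrp1 were not analysed here. The 8 mesothelial markers summed to 1799 to 5362 against 8540 to 10012, with Slpi and Krt19 called higher and 6 not called. Without Slpi the other 7 summed to 891 to 2876 against 2366 to 2869 and the groups overlapped. Over the 8 markers 6 log2 fold changes were positive and 2 negative, those of Upk3b (-0.40) and Lrrn4 (-0.09). Msln (0.89, without overlap between the groups), Bnc1 (0.80), Upk1b (0.70) and Wt1 (0.15) were positive but not called. The 7 pericyte markers summed to 712 to 1266 against 1247 to 1643, and these sums overlapped through shControl replicate 2 (1266). Notch3 and Des were called higher and 5 were not called. Without Des the other 6 summed to 368 to 443 against 365 to 514. The 5 listed immune markers summed to 246 to 287 against 376 to 410, with Csf1r and C1qa called higher and 3 not called, and Ptprc was not analysed here. Without Csf1r the other 4 summed to 135 to 185 against 117 to 170. The log2 fold changes of Cd68 (-0.32) and Lyz2 (-0.26) were negative, and that of Tyrobp (0.52), at 1 to 16 counts per library, was positive. Of 3 endothelial and 2 Schwann cell markers none was called, and Pecam1 and Sox10 had no count in at least 1 library. The 3 endothelial markers summed to 66.6 to 115 against 81.2 to 111, and these sums overlapped. Pecam1 was lower in shBrca2 without overlap (log2 fold change -3.60, DESeq2 adjusted p = 0.031) but its mean normalized count of 3.87 was under the limit. The groups of Tek (-1.55, DESeq2 adjusted p = 0.12) did not overlap either. Kdr, at 39 to 169 counts per library, went the other way (0.51, DESeq2 adjusted p = 0.46), with overlapping groups. The part of these differences in the results on Wnt genes was not tested. In bulk libraries of this kind, fewer cells of a type and less RNA per cell cannot be told apart.

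Values below are normalized counts, the counts divided by a size factor for each library, and fold changes are shBrca2 over shControl. A gene was called when its adjusted p was under 0.1, its log2 fold change was beyond 0.5 in either direction and its mean normalized count was over 5. All 45 members were tested, and 41 had a mean normalized count over 5. The test called 6 of the 45 members (13.3%), beside 9.04% of all genes tested. Lgr5 was the 1 member that rose (2.22% of members, beside 3.77% of all genes), and Sfrp4, Sfrp2, Tcf7l2, Fzd8 and Nkd2 fell (11.1%, beside 5.27%). In 7 members (15.6%) the groups did not overlap in normalized counts, beside 17.1% of all genes. Over the 45 members 18 log2 fold changes were positive and 27 negative, with a median of -0.14, beside 0.01 for all genes tested. The share called lower was above that of all genes, and the shares called higher and not overlapping were below it. Without shBrca2 replicate 3 the order turned, with 1 member called lower (2.22%) beside 5.28% of all genes.

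**Figure D1:**
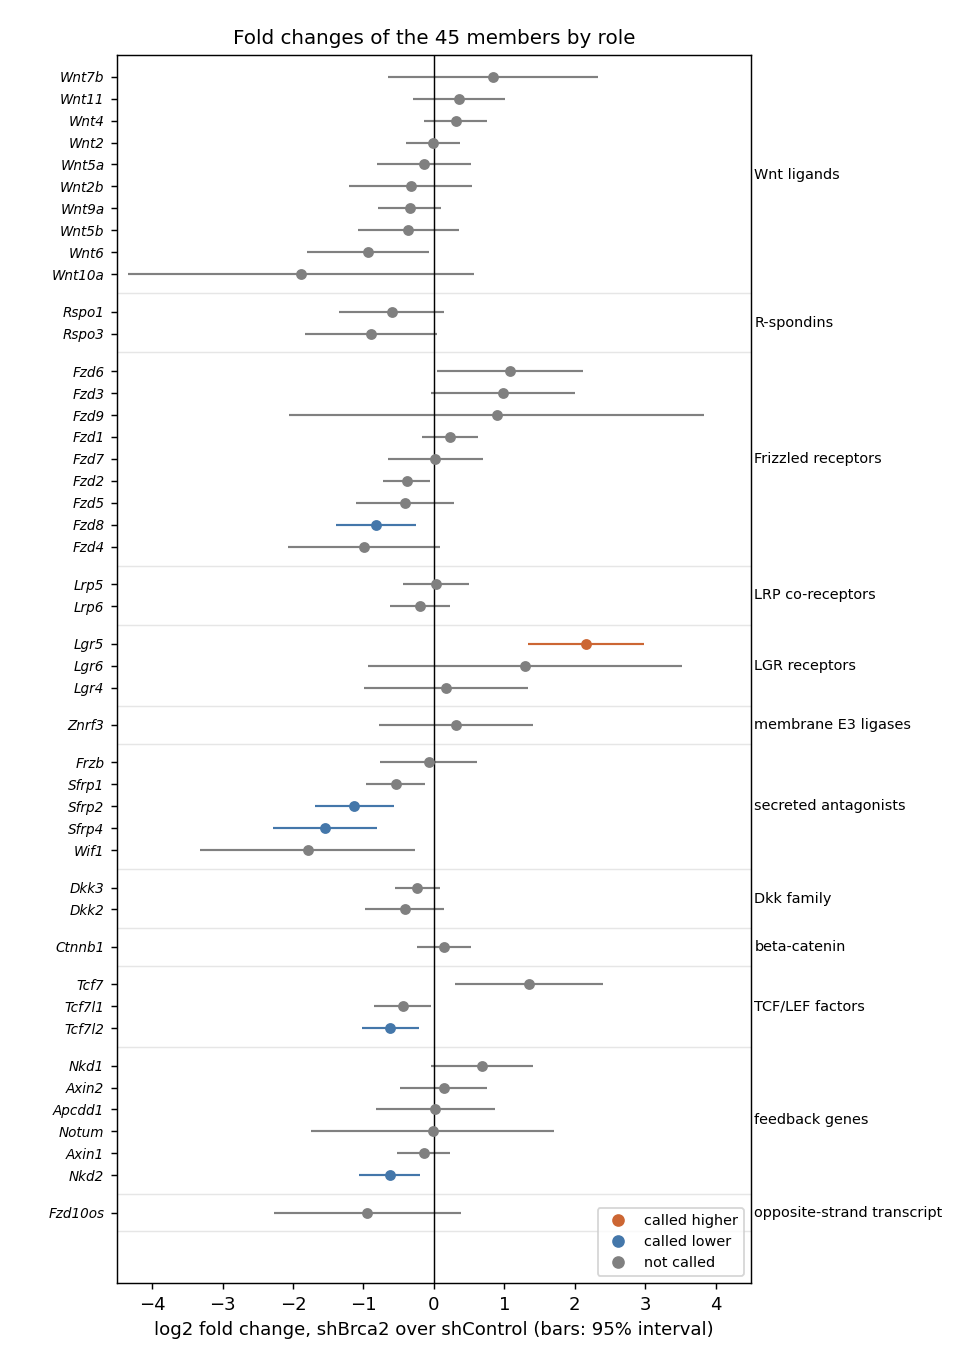
Log2 fold change of each of the 45 members (points) with its 95% interval (bars), shBrca2 over shControl, grouped by role; colors mark the 1 member called higher, the 5 called lower and the 39 not called. All 5 secreted antagonists lie below 0, and the widest intervals belong to genes with few counts such as Fzd9 and Wnt10a.

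Among the secreted antagonists, which bind Wnt ligands outside the cell, 2 of 5 fell and the log2 fold changes of all 5 were negative, with a median of -1.13. Sfrp2, a secreted Frizzled-related protein, lies at chr3:83765750-83774314 (GRCm38.p6). Its normalized counts were 2675, 2382 and 4060 in the shControl libraries (in the order replicate 1, 2, 4, as everywhere below) and 1249, 1964, 1515 and 829 in the shBrca2 libraries (replicate 1 to 4). Every shBrca2 library lay below every shControl library, with shBrca2 replicate 2 the closest. Sfrp2 fell 2.19-fold (log2 fold change -1.13 ± 0.28 SE, DESeq2 adjusted p = 0.0025), and it passed in all 13 alternative fits, at log2 fold changes from -1.35 to -0.87. In the annotation 484 of its 2300 exon bases lie opposite Gm26771, and the handling of strand was not given in the sources used here, so reads of that pair cannot be told apart.

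Sfrp4, a related antagonist at chr13:19623175-19632825, had 1902, 934 and 964 normalized counts in shControl and 445, 728, 371 and 187 in shBrca2. The groups again did not overlap, and shControl replicate 1 stood well above the other shControl libraries. Sfrp4 fell 2.92-fold (log2 fold change -1.55 ± 0.38 SE, DESeq2 adjusted p = 0.0018). The fold change kept its size without shBrca2 replicate 1 (-1.56) or replicate 3 (-1.48), but the adjusted p was then 0.23 and 0.15 and Sfrp4 was not called. Its exons share no base with another gene.

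Sfrp1, the third Frizzled-related protein of this class, missed the threshold. Its normalized counts were 4479, 4643 and 6288 in shControl and 3305, 4724, 3117 and 2956 in shBrca2. Of the shBrca2 libraries, replicate 2 alone reached into the shControl range. Its log2 fold change was -0.54 ± 0.21 (SE, DESeq2 adjusted p = 0.10). Sfrp1 was called among genes with a mean raw count of 10 or more, without shControl replicate 2 or without shBrca2 replicate 2. Omission of shBrca2 replicate 2 gave a log2 fold change of -0.72 and a DESeq2 adjusted p of 0.0037. Without shControl replicate 4 the log2 fold change was -0.37 (DESeq2 adjusted p = 0.52).

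Wif1, a Wnt inhibitory factor of another family, had 17.1, 11.4 and 12.6 normalized counts in shControl and 1.72, 1.75, 0 and 12.2 in shBrca2, from 0 to 20 counts per library. shBrca2 replicate 4 lay within the shControl range and the other shBrca2 libraries far below it. Wif1 had a log2 fold change of -1.79 ± 0.78 (SE, DESeq2 adjusted p = 0.16). It was -3.31 and called without shBrca2 replicate 4 (adjusted p = 0.0053), so 1 library decided it. Frzb, which encodes a further Frizzled-related protein, had a log2 fold change of -0.08 ± 0.35 (SE), and its groups overlapped.

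**Figure D2:**
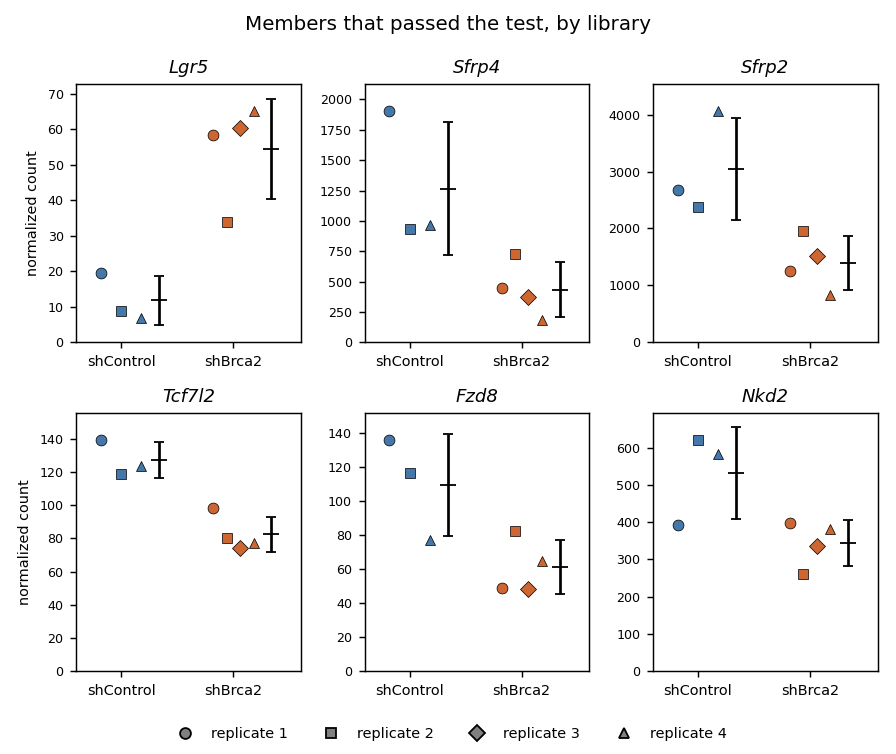
Normalized counts of the 6 called members in each library, on linear axes from 0; symbols mark replicates, and bars show the mean and standard deviation of 3 shControl and 4 shBrca2 libraries. The groups do not overlap for Lgr5, Sfrp4, Sfrp2 and Tcf7l2, and they overlap for Fzd8 and Nkd2.

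The Dkk family, whose best known members block LRP5 and LRP6, was represented by Dkk2 and Dkk3, and neither was called. Dkk3, a divergent member, had 523, 444 and 608 normalized counts in shControl and 434, 449, 480 and 428 in shBrca2. The groups overlapped, and the log2 fold change was -0.23 with a 95% interval from -0.55 to 0.08. Dkk2 had a log2 fold change of -0.41 ± 0.29 (SE).

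None of the 10 Wnt ligands was called, with 3 log2 fold changes positive, 7 negative and a median of -0.24. Wnt4 had 424, 650 and 840 normalized counts in shControl and 867, 711, 815 and 766 in shBrca2. shControl replicate 4 lay within the shBrca2 range, and shControl replicates 1 and 2 below it. Its log2 fold change was 0.31 with a 95% interval from -0.14 to 0.75. Wnt2 was nearly level between the groups, at 264, 352 and 285 against 355, 310, 249 and 267 normalized counts, and the 95% interval of its log2 fold change ran from -0.39 to 0.36.

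Wnt6 was the 1 ligand whose groups did not overlap. It had 23.1, 24.0 and 40.9 normalized counts in shControl and 21.5, 19.2, 10.4 and 8.13 in shBrca2. The shBrca2 libraries were the lower ones, though replicate 1 lay just under the nearest shControl library. Wnt6 had a log2 fold change of -0.94 ± 0.44 (SE, DESeq2 adjusted p = 0.21), and it was called in none of 13 alternative fits.

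Wnt5a, a ligand best known for signaling without β-catenin, had a log2 fold change of -0.14 ± 0.34 (SE). Wnt11, another such ligand, had 57.2, 109 and 36.0 normalized counts in shControl and 99.0, 79.9, 77.7 and 83.3 in shBrca2. shControl replicate 2 was the highest of the 7 libraries and the other shControl libraries were the lowest. The log2 fold change of 0.35 (DESeq2 adjusted p = 0.67) was 0.86 without shControl replicate 2, and Wnt11 was then called (adjusted p = 0.060). Without shControl replicate 4 the log2 fold change was 0.05 (DESeq2 adjusted p = 0.97). The remaining ligands, Wnt2b, Wnt5b, Wnt7b, Wnt9a and Wnt10a, had log2 fold changes from -1.89 for Wnt10a, at 0 to 6 counts per library, to 0.84 for Wnt7b, at 3 to 17 counts.

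R-spondins are secreted proteins that strengthen Wnt signaling by removing the E3 ligases ZNRF3 and RNF43 from the cell surface, with LGR4, LGR5 and LGR6 as their receptors. Lgr5, also a Wnt target gene and a stem cell marker in the intestine, was the member with the largest called change. Lgr5 (chr10:115450314-115587780) had 19.6, 8.86 and 6.81 normalized counts in shControl and 58.5, 33.8, 60.4 and 65.0 in shBrca2. Every shBrca2 library lay above every shControl library, with replicate 2 the lowest of the shBrca2 libraries. Lgr5 rose 4.47-fold (log2 fold change 2.16 ± 0.42 SE, DESeq2 adjusted p = 3.7e-05). It passed in all 13 alternative fits, at log2 fold changes from 1.87 to 2.80, where the highest value came without shControl replicate 1. The annotation places 749 of its 10264 exon bases opposite Gm66839.

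The other receptors of R-spondins did not pass the test. Lgr4 had a log2 fold change of 0.17 ± 0.59 (SE), and Lgr6 one of 1.30 ± 1.14 (SE) from 0 to 6 counts per library. A change of Lgr6 was not detectable at this depth. Znrf3 had 5 to 12 counts per library and a log2 fold change of 0.32 ± 0.56 (SE).

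Neither R-spondin was called. Rspo1 had 279, 224 and 817 normalized counts in shControl and 252, 336, 358 and 220 in shBrca2. shControl replicate 4 alone set the shControl mean above the shBrca2 mean. The log2 fold change was -0.60 ± 0.38 (SE, DESeq2 adjusted p = 0.44). It was 0.20 without shControl replicate 4, while without shControl replicate 2 it was -0.92 and called (adjusted p = 0.071). Rspo3 showed a similar layout, with 63.2 normalized counts in shControl replicate 1 and 13.2 to 24.5 in the other 6 libraries, and a log2 fold change of -0.89 ± 0.48 (SE).

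Of the 9 Frizzled receptors 1 fell and none rose, with 5 log2 fold changes positive and 4 negative. Fzd8 (chr18:9212856-9216201) had 136, 116 and 76.9 normalized counts in shControl and 49.1, 82.2, 48.4 and 65.0 in shBrca2. The groups overlapped, since shBrca2 replicate 2 lay above shControl replicate 4. Fzd8 fell 1.77-fold (log2 fold change -0.82 ± 0.29 SE, DESeq2 adjusted p = 0.055). The call held in 2 of 7 fits without 1 library: it was kept without shControl replicate 4 or shBrca2 replicate 2, and the omission of any other library raised the adjusted p to between 0.14 and 0.39.

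Fzd2, Fzd6 and Fzd3 did not pass the test. Fzd2 had 208, 250 and 210 normalized counts in shControl and 176, 175, 166 and 161 in shBrca2. The groups did not overlap, but the log2 fold change of -0.39 was small (SE 0.17, DESeq2 adjusted p = 0.17). Fzd6, a receptor with a known part in planar cell polarity, had 8.54, 6.33 and 8.76 normalized counts in shControl and 18.9, 8.74, 25.9 and 16.3 in shBrca2. shBrca2 replicate 2 lay within the shControl range and the other shBrca2 libraries lay above it. Its log2 fold change was 1.08 ± 0.53 (SE, DESeq2 adjusted p = 0.25), and that of Fzd3, whose groups did not overlap, was 0.98 ± 0.52 (SE, DESeq2 adjusted p = 0.31).

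Fzd1, a receptor that can act through β-catenin, had 621, 682 and 748 normalized counts in shControl and 818, 575, 991 and 823 in shBrca2, with overlapping groups. The 95% interval of its log2 fold change, 0.23, ran from -0.17 to 0.62. The remaining Frizzled genes, Fzd4, Fzd5, Fzd7 and Fzd9, had log2 fold changes from -0.99 to 0.89, and Fzd9 had 0 to 6 counts per library.

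The co-receptors differed little between the groups. Lrp6 had 94.0, 88.6 and 83.7 normalized counts in shControl and 88.6, 72.3, 70.8 and 77.2 in shBrca2, with a 95% interval of the log2 fold change from -0.62 to 0.23. Lrp5 had 57.2, 64.5 and 57.4 against 66.3, 57.1, 55.3 and 64.0 normalized counts, with an interval from -0.43 to 0.50. Both intervals lie within 1 log2 unit of 0.

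Ctnnb1, which encodes β-catenin, had 1304, 1583 and 1343 normalized counts in shControl and 1721, 1731, 1086 and 1683 in shBrca2. shBrca2 replicate 3 was the lowest of the 7 libraries and the other shBrca2 libraries were the highest. The log2 fold change was 0.14 with a 95% interval from -0.24 to 0.53. β-catenin is mainly regulated as a protein, which was not measured here.

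The TCF/LEF factors bind DNA and recruit β-catenin to target genes, and the 3 members in the table differed in direction. Tcf7l2 (chr19:55741797-55933659) had 139, 119 and 124 normalized counts in shControl and 98.1, 80.4, 74.3 and 77.2 in shBrca2. All shBrca2 libraries lay below all shControl libraries, with little spread within either group. Tcf7l2 fell 1.54-fold (log2 fold change -0.62 ± 0.21 SE, DESeq2 adjusted p = 0.042). The log2 fold change stayed between -0.71 and -0.55 when any 1 library was left out, yet the call was kept in only 1 of those 7 fits, the fit without shControl replicate 2, and the adjusted p rose to as much as 0.34.

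Tcf7l1, a factor best known as a repressor, had 561, 428 and 632 normalized counts in shControl and 361, 490, 402 and 333 in shBrca2. The groups overlapped through shControl replicate 2 and shBrca2 replicate 2. Its log2 fold change was -0.45 ± 0.20 (SE, DESeq2 adjusted p = 0.20), and it was called without either of those libraries (-0.59 and -0.57). Without shControl replicate 4 the log2 fold change was -0.32 (DESeq2 adjusted p = 0.66). Tcf7, itself a target of the pathway in several tissues, had 5.13, 22.8 and 6.81 normalized counts in shControl and 40.4, 15.2, 25.9 and 32.5 in shBrca2. The groups again overlapped through shControl replicate 2 and shBrca2 replicate 2. Its log2 fold change was 1.35 ± 0.54 (SE, DESeq2 adjusted p = 0.13), and it was called without shControl replicate 2 (2.25, adjusted p = 0.0049) or shBrca2 replicate 2 (1.58, adjusted p = 0.059). Without shControl replicate 1 the log2 fold change was 0.98 (DESeq2 adjusted p = 0.50).

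**Figure D3:**
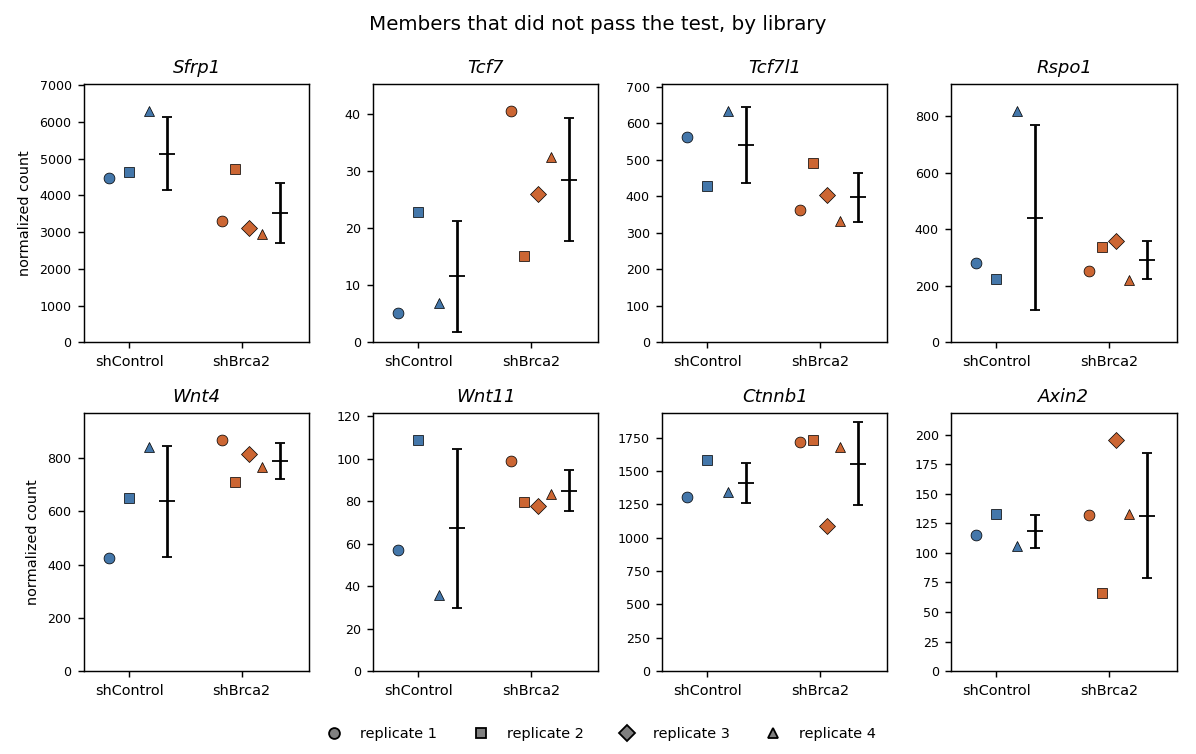
Normalized counts of 8 members that did not pass the test in each library, on linear axes from 0; symbols mark replicates, and bars show the mean and standard deviation of 3 shControl and 4 shBrca2 libraries. Single libraries stand apart in Rspo1 (shControl replicate 4 at 817), Tcf7 and Wnt11 (shControl replicate 2 at 22.8 and 109) and Ctnnb1 (shBrca2 replicate 3 at 1086).

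The feedback genes encode inhibitors of the pathway, several of them induced by the pathway itself. Nkd2, a Naked homolog that binds Dishevelled, was the 1 of 6 that was called. Nkd2 (chr13:73818534-73847631) had 391, 620 and 584 normalized counts in shControl and 397, 262, 337 and 381 in shBrca2. shControl replicate 1 lay among the shBrca2 libraries. Nkd2 fell 1.54-fold (log2 fold change -0.63 ± 0.22 SE, DESeq2 adjusted p = 0.059), and the call held in 2 of 7 fits without 1 library, those without shControl replicate 1 and without shBrca2 replicate 1. Nkd1, its paralog, had a log2 fold change in the other direction, 0.68 ± 0.37 (SE, DESeq2 adjusted p = 0.33).

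Axin2, a scaffold of the β-catenin destruction complex and a widely used target gene of the canonical branch, was singled out for that use after its values were seen. It had 115, 133 and 106 normalized counts in shControl and 132, 65.9, 195 and 133 in shBrca2. The shBrca2 libraries held both the lowest and the highest of the 7 values. The log2 fold change was 0.14 with a 95% interval from -0.48 to 0.76, and it was -0.11 without shBrca2 replicate 3. Axin1 (-0.14), Apcdd1 (0.02) and Notum (-0.02) were not called either, and Notum had 1 to 7 counts per library. Fzd10os had a log2 fold change of -0.94 ± 0.68 (SE) from 1 to 15 counts per library.

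**Figure D4:**
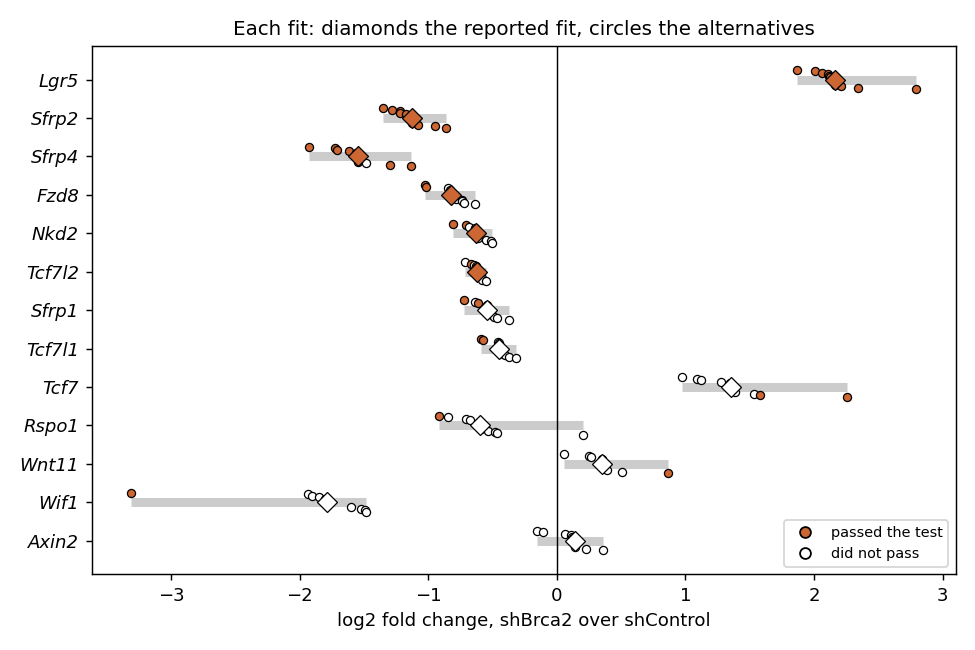
Log2 fold changes of 13 members, shBrca2 over shControl, in the reported fit (diamonds) and in each alternative fit (circles), filled where the gene passed the test; gray bars span the range. Lgr5 and Sfrp2 passed in every fit shown, and Rspo1 and Axin2 crossed 0.

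Some libraries lay nearest to the other group in several members. For 4 of the 6 called members (Lgr5, Sfrp2, Sfrp4 and Fzd8), shBrca2 replicate 2, the library with most counts, lay nearest to shControl. For 3 of the 6 (Sfrp2, Sfrp4 and Tcf7l2), shControl replicate 2 lay nearest to shBrca2 among the shControl libraries. These calls were kept without the library in question. Its omission widened the difference between the groups, so the kept calls are no separate support. Tcf7l2 was called in no other fit without 1 library. Among the marker lists, shBrca2 replicate 2 had the lowest summed epithelial level (1467) and the highest summed fibroblast level (133450) of the shBrca2 group. The fibroblast sum held Col3a1 at 51637, against 34894 to 38146 in the other shBrca2 libraries. Single fibroblast markers differed, with Pdpn (590) highest and Pdgfrb (893) lowest in replicate 2. The part of these levels in the position of replicate 2 was not tested.

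Promoter windows of 300 bases (250 before and 50 after the start) were at hand in RefSeq (GRCm38.p6) for 26 of the 45 members. They were searched on both strands for the TCF/LEF letters CTTTGAT or CTTTGAA, the letters ACGTG of the hypoxia response and the letters GAANNTTC of the heat shock response, where CTTTGAA can overlap GAANNTTC through its last letters. The windows of all 3 called members that have one are shown, with any match in capitals. These 3 members all fell, and a 3' end assay does not tell which start was used.
Sfrp2, chr3:83766071-83766370, plus strand: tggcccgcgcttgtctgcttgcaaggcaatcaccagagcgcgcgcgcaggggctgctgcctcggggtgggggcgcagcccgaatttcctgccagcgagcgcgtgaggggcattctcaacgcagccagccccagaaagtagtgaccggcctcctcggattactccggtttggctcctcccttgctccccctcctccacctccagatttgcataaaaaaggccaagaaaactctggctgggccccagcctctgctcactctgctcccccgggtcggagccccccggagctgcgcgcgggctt
Tcf7l2, first of 2 windows, chr19:55741560-55741859, plus strand: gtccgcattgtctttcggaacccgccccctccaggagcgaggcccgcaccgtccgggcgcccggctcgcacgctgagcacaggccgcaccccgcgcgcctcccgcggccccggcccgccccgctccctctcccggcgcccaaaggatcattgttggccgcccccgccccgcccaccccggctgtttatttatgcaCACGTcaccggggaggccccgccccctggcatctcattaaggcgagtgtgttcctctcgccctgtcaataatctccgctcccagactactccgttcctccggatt
Tcf7l2, second window, chr19:55895071-55895370, plus strand: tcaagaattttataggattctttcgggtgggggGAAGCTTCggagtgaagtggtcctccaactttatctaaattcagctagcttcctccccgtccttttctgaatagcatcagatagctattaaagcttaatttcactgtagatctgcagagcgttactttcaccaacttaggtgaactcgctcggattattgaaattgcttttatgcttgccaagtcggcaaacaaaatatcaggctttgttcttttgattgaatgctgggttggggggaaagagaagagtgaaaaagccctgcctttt
Nkd2, chr13:73847582-73847881, minus strand: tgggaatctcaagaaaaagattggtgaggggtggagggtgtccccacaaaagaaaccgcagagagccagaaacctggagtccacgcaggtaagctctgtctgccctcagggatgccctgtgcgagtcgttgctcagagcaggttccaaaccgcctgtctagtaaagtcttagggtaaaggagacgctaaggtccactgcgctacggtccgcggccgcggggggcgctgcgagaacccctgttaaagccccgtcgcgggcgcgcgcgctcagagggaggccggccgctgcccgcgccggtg
The first Tcf7l2 window holds the ACGTG letters on the opposite strand from position -55 relative to the start, the second holds the heat shock letters from position -217, and the Sfrp2 and Nkd2 windows hold none of the motifs. Over the 32 windows of the members, 2 (6.25%) held the TCF/LEF letters, those of Wnt11 and Wnt5b, beside 8.65% of all 32851 windows. The ACGTG letters were in 7 windows (21.9%, beside 19.6%), and the heat shock letters in 2 (6.25%, beside 7.86%). These are matches of letters and not measured binding.

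Genes that act in the same pathway but that the rule does not hold were examined as a list of 52, of which 48 were in the table (Kremen2, Celsr2, Sostdc1 and Sost were not analysed here). Of these 2 rose (4.17%, beside 3.77% of all genes) and 3 fell (6.25%, beside 5.27%), shares near those of all genes, and the median log2 fold change was -0.06, beside 0.01 for all genes. Gpc3, a cell surface glypican that can bind Wnt ligands, had 305, 186 and 224 normalized counts in shControl and 86.1, 97.9, 131 and 89.4 in shBrca2. The groups did not overlap, and Gpc3 fell 2.39-fold (log2 fold change -1.26 ± 0.24 SE, DESeq2 adjusted p = 1.6e-05).

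Of 12 listed Dishevelled and polarity genes 1 rose, 1 fell and 10 were not called. Daam1, a formin downstream of Dishevelled, had 97.4, 69.6 and 89.5 normalized counts in shControl and 51.6, 51.3, 48.4 and 45.7 in shBrca2, without overlap, and fell 1.74-fold (DESeq2 adjusted p = 0.018). Prickle1, a core planar polarity gene, had 179, 233 and 229 against 392, 232, 396 and 361 normalized counts. It rose 1.61-fold (DESeq2 adjusted p = 0.044), with shBrca2 replicate 2 within the shControl range.

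In the nucleus, Tle2, a Groucho corepressor that TCF/LEF factors recruit, had 89.7, 84.8 and 76.9 normalized counts in shControl and 44.7, 51.3, 58.7 and 63.0 in shBrca2. The groups did not overlap, and Tle2 fell 1.55-fold (DESeq2 adjusted p = 0.082). Tnks2, a tankyrase that marks AXIN proteins for degradation, had 89.7, 86.0 and 74.9 against 168, 163, 77.7 and 138 normalized counts and rose 1.66-fold (DESeq2 adjusted p = 0.085), with shBrca2 replicate 3 within the shControl range. Neither of the secretion genes Porcn and Wls, nor any of 5 co-receptor genes in the table, was called.

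**Figure D5:**
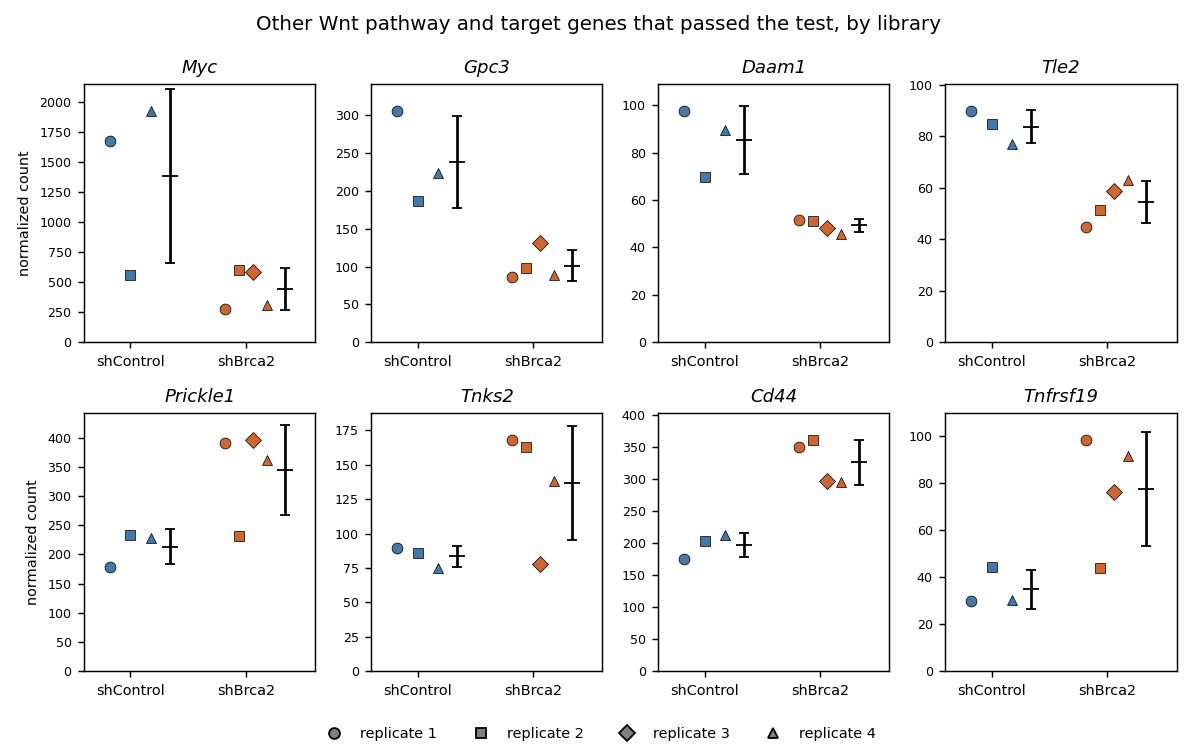
Normalized counts in each library of the 5 called pathway genes and 3 called TCF/LEF target genes that are no members, on linear axes from 0; symbols mark replicates, and bars show the mean and standard deviation of 3 shControl and 4 shBrca2 libraries. The groups do not overlap for Gpc3, Daam1, Tle2 and Cd44, and they overlap for Myc, Prickle1, Tnks2 and Tnfrsf19.

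Of 15 further genes known as TCF/LEF targets, 11 were in the table (Bambi, Mmp7, Cdx2 and Prox1 were not analysed here), and 2 rose (18.2%, beside 3.77% of all genes) and 1 fell (9.09%, beside 5.27%). Tnfrsf19, a receptor of the TNF family, had 29.9, 44.3 and 30.2 normalized counts in shControl and 98.1, 43.7, 76.0 and 91.5 in shBrca2, and rose 2.23-fold (DESeq2 adjusted p = 0.016). Its shBrca2 replicate 2 lay within the shControl range. Cd44, a hyaluronan receptor, had 175, 202 and 212 against 350, 360, 297 and 295 normalized counts, without overlap, and rose 1.67-fold (DESeq2 adjusted p = 0.0012).

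Myc, a growth-promoting transcription factor with many inputs besides Wnt, had 1673, 557 and 1923 normalized counts in shControl and 280, 602, 589 and 312 in shBrca2. shControl replicate 2 lay within the shBrca2 range. Myc fell 3.11-fold (log2 fold change -1.64 ± 0.54 SE, DESeq2 adjusted p = 0.040). Ccn1 was at 4811, 3757 and 4389 against 3056, 3387, 2853 and 3197 normalized counts. Its DESeq2 adjusted p of 0.023 passed, but its log2 fold change of -0.47 did not reach the limit on the fold. Larger log2 fold changes among uncalled targets were those of Ccn4 (0.62), Fosl1 (0.61), Tiam1 (-0.70) and Sp5 (-1.10, at 0 to 7 counts per library). Their DESeq2 adjusted p ran from 0.13 to 0.70. The median log2 fold change of the 11 genes was -0.04, and 5 were positive and 6 negative.

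Of the 39 members that were not called, 18 had a 95% interval of the log2 fold change within 1 unit of 0, and 13 had a standard error over 0.5. For the latter, among them Fzd9, Lgr4, Lgr6, Notum, Wif1, Wnt7b, Wnt10a and Znrf3, a change of less than a log2 unit was not detectable at this depth.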

How the data were processed

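RNA of CAFs sorted from 3 shControl and 4 shBrca2 tumors was measured. The authors deposited raw counts per gene symbol, 1 column per library, whole numbers that were not normalized. The submitters' processing notes name bcl2fastq, cutadapt, STAR 2.4.2a, HTSeq, DESeq2 and mm10. The annotation, the handling of strand and the collapsing of molecular barcodes were not given in the sources used here, so counts may include PCR copies and reads of the opposite strand. Total counts were 1898679 to 5990579 per library. Between the 2 most similar libraries chi-square averaged 3.16 per gene, above the value near 1 of a library deposited again.

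Groups were taken from the silencing status in the labels. DESeq2 1.42.0 (R 4.3.3) was fitted to all 12771 genes, with the likelihood ratio test that the methods of the study give and the default size factors. Of these, 12768 genes received a p, and p values were adjusted by Benjamini-Hochberg over all genes. Thresholds were an adjusted p of 0.1, a log2 fold change of 0.5 and a mean normalized count of 5. Fold changes were not shrunken, and 95% intervals are Wald intervals. The code was tested on simulated data. Alternatives were edgeR 4.0.16, a Wald test, TMM factors, a mean raw count of 10, no independent filtering, other thresholds, a replicate block and leaving out each library.

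Same-numbered libraries of the groups did not deviate together (correlations of -0.07, -0.10 and -0.09 over 11632 genes). The members, lists and tests were chosen with earlier results of these data known. Members were named when called, when their unadjusted p was under 0.05, when called in a fit without 1 library, or when highest in mean normalized count in their role. Axin2 and the genes of the summaries were added after their values were seen. Exon sharing was taken by symbol from GENCODE vM39, and positions and promoters from RefSeq GRCm38.p6.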

Additional observations from a re-analysis of the deposited data

Results flagged for a closer look

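The 22 members followed in all alternatives were examined for a shBrca2 library far from the other shBrca2 libraries, which chance gives in about 1 in 20 groups. In 2 of them such a library was found. Ctnnb1 had 1086.3 normalized counts in shBrca2 replicate 3, and the gap to the nearest library was 0.926 of the range of the group. Wif1 had 12.2 normalized counts in shBrca2 replicate 4, with a gap of 0.857 of the range.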

How the results depend on the processing

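Lgr5 and Sfrp2 were called in all 13 alternative fits, and of 284 values of named members under alternatives 250 kept their direction and their side of the threshold, 21 lost the call, 10 gained one and 3 changed sign. The number of members called higher was 1, with a range of 1 to 3 when 1 library was left out. The number called lower was 5, and it was 3 at an adjusted p under 0.05, 2 with the replicate block and 1 to 6 without 1 library, where 1 came without shBrca2 replicate 3. Over all genes 481 were called higher and 673 lower, against 211 and 280 with the block. Without shControl replicate 1 they were 264 and 366, without shBrca2 replicate 1 they were 261 and 354, without shBrca2 replicate 4 they were 290 and 372, and without shBrca2 replicate 3 they were 489 and 674. The median log2 fold change of the members was -0.14, and it was -0.21 for the members with a mean raw count of 10 or more and -0.27 to -0.052 without 1 library. That filter gave no value for 9 members, Wif1 and Znrf3 among them. Axin2 was at -0.16 with the replicate block and between -0.11 and 0.36 without 1 library, and Rspo1 was between -0.92 and 0.20. Of the other pathway genes 2 were called higher, but 1 was at an adjusted p under 0.05, 1 with edgeR, 1 with the replicate block and 0 to 2 without 1 library. The 3 called lower were 1 with the block and 1 to 4 without 1 library. Same-numbered libraries did not deviate together, which does not settle whether they were handled together. The cause of these changes was not tested. Members with few counts are limited by depth.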
